A study of Mus musculus with 4 samples.

Results

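Genes that copy the genome and divide the cell were examined in 4 mouse pancreatic cancer cell lines. The set was given as 56 gene names, by a rule that uses no signal but was written with earlier results of these data known, and 55 of them were measured among 19938 genes. Each name was matched to the gene symbol of the array annotation, clusters of probes with 1 symbol were used, and a gene with several such clusters was read from the brightest of them, averaged across arrays. Ccnb1, which encodes cyclin B1, had no cluster under its symbol alone and was not analysed here. By role, the measured genes comprised 15 replication genes, 18 mitosis genes, 5 D-type and E-type cyclins, 2 A-type and B-type cyclins, 7 cyclin-dependent kinases and CDC25 phosphatases, 6 transcription factors and 2 brakes on the cycle.

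Lines TPC18645 and TPC20223 were labelled TPC (Ela-TGFa; Ptg1a+/CRE; Trp53fl/fl), and lines K459 and TCPA18654 were labelled TPAC, which adds p65fl/fl to the same alleles. The study's text gives the Cre driver as p48-Cre. All 4 lines thus shared the TGF-α transgene, which the elastase-1 promoter drives in the pancreas, a pancreatic Cre and floxed p53 alleles, and TPAC cells also carried floxed RelA/p65. The cells were grown from digested pancreatic tumours in serum-containing medium without treatment, and the RNA of each culture was hybridised to 1 Affymetrix Mouse Gene 1.0 ST array. The age of the mice the lines came from was not used here, and the sources used here do not say whether each line had its own mouse, so that p-values measure the spread between these 4 cultures. All values below are log2 signals made by the authors with RMA, in which a difference of 1 is a 2-fold change. Levels of different genes cannot be compared on this scale, because each gene has its own probes.

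In dividing cells, MCM helicase subunits are loaded onto replication origins in G1 and start to unwind DNA in S phase. D-type cyclins with CDK4 and CDK6, and then E-type cyclins with CDK2, inactivate the retinoblastoma protein, which frees E2F factors to activate replication genes. Later in the cycle, CDK1 with cyclins A and B drives entry into mitosis, and many mitotic genes are switched on in G2 by the MuvB complex with B-MYB and FOXM1 through a promoter element called CHR. Cultures of tumour cells that divide at different rates, or that spend different times in each phase, can differ in the abundance of all these transcripts, and RNA from a bulk culture does not tell more cells in a phase from more transcript per cell.

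Promoters of the replication and mitosis genes differed in sequence, a property that played no part in the choice of genes. RefSeq windows of 300 bases on GRCm38.p6, with 250 bases before and 50 after each gene's start, were at hand for 41 of the 55 genes. Both strands were searched for TTTCCCGC, TTTGGCGC, TTTCGCGC and TTTGCCGC as E2F strings. The CHR element was searched as TTTGAA or as TTCGAA. The pentamer CCAAT, to which NF-Y binds, was also searched. The E-box of MYC proteins was searched as CACGTG. An E2F string lay in the window of 6 of 12 replication genes (50%) and of 0 of 15 mitosis genes, against 2.61% of the 27025 genes with a window. A CHR string showed the reverse split, with 12 of 15 mitosis genes (80.0%) and 3 of 12 replication genes (25%), against 21.7% of all genes. CCAAT was frequent in both groups (75.0% of replication and 86.7% of mitosis genes, against 41.1% of all), whereas the E-box lay in 1 gene of each group, against 8.09% of all genes. In a second list of replication and mitosis genes, outside the set, the split had the same order but was less sharp: E2F strings lay in 12 of 37 other replication genes (32.4%) and 6 of 48 other mitosis genes (12.5%), and CHR strings in 9 of 37 (24.3%) and 33 of 48 (68.8%). A matching string is a description of these windows and not evidence of a bound factor.

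**Figure D1:**
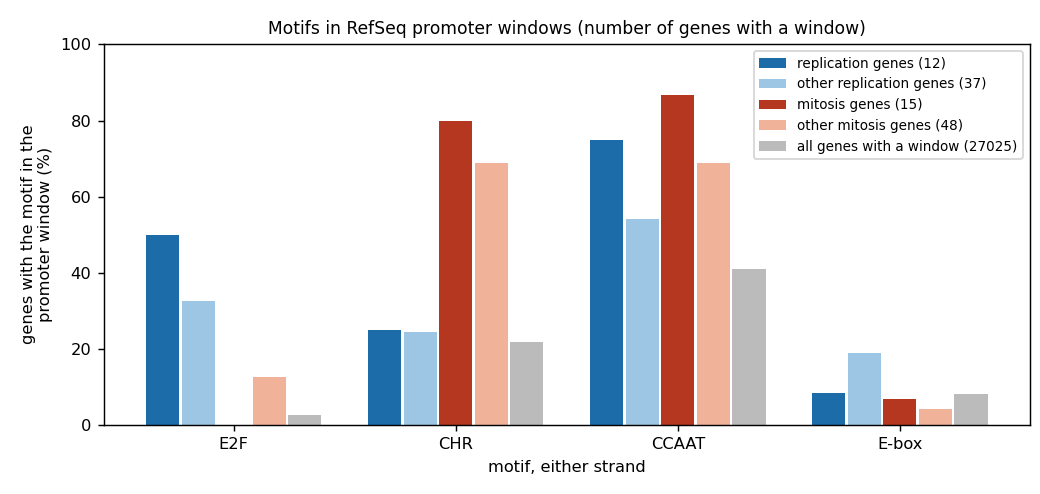
Share of genes (%) whose RefSeq promoter window holds an E2F, CHR, CCAAT or E-box string on either strand, for the replication and mitosis genes of the set, for 2 lists of further such genes and for all genes with a window. E2F strings reach 50% in the replication genes and are not found in the 15 mitosis windows, while CHR strings reach 80.0% in the mitosis genes.

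The 250 bases before the start of 4 genes are shown 5′ to 3′ on the gene's strand, with the strings in capitals, because they stand for the kinds of promoter in the set: a replication gene (Mcm6), a mitosis gene (Cdc20), a gene with strings of both kinds (Cdk1) and the gene that differed most between lines (Mycn). All 4 lie on the minus strand of GRCm38.p6, Mcm6 at chr1:128359706-128359955, Cdc20 at chr4:118437344-118437593, Cdk1 at chr10:69352913-69353162 and Mycn at chr12:12941837-12942086. Mcm6 carried E2F strings from positions -110, -106 and -47, counted back from the start, the first and second of which overlap. Cdc20 carried a CHR string from -18 between CCAAT from -53 and from -8, and Cdk1 carried an E2F string from -131 and CHR strings from -71 and -15. The Mycn window held E2F strings from -183, -179 and -168, of which the first and second overlap, and a CHR string from -14 on the other strand.
Mcm6: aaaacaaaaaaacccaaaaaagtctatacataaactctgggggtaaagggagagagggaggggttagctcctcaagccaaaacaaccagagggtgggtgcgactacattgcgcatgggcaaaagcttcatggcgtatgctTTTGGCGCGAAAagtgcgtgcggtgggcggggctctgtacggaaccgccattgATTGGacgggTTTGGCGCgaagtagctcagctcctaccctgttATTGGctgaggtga
Cdc20: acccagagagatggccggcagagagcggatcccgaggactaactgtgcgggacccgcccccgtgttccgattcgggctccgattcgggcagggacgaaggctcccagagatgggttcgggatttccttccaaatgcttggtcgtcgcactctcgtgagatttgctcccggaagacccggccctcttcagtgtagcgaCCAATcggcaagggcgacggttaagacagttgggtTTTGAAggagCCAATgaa
Cdk1: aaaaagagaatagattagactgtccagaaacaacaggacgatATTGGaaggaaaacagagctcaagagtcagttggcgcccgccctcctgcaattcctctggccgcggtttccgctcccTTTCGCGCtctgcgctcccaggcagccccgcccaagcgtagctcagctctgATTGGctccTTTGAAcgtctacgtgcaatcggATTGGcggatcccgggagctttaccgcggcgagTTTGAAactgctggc
Mycn: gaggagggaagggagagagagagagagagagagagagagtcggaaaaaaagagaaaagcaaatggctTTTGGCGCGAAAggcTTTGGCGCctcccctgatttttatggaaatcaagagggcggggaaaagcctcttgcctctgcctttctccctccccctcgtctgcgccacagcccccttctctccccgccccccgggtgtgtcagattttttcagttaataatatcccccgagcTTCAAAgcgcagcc

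By rank, which reflects each gene's probes as well as its RNA, every measured member had a mean signal above the median of all genes. The lowest lay at the 50.35th percentile (Mycn), with a median at the 86.94th percentile, and none lay at or below the 40th percentile, under which genes are called dim here. Over the 4 lines the members spanned a median of 0.45 on the log2 scale, against 0.40 for all genes. TPC20223 stood apart from the other lines in several cell type markers. Krt19, a keratin of ductal cells, had a signal of 6.08 in this line and of 11.74 to 12.65 in the others. In TPC20223, 8 of 9 ductal and epithelial markers were lowest, against 38.8% of all genes. Not all of them set this line apart. Epcam was at 6.43 in TPC20223, 6.82 in TPC18645 and 7.37 in TCPA18654, and high in K459, at 9.77. Cldn4 and Cldn7 were likewise high in K459, at 9.19 and 8.68. In the other lines they were at 6.93 to 7.25 and at 6.66 to 7.38. Of 7 fibroblast markers, 5 were highest in TPC20223, against 28.1% of all genes, with Col1a1 at 13.02 against 8.53 to 10.36. Of these 5, Lum was dim, with 4.72 against 4.27 to 4.65. Dcn was at 9.35 in TPC20223, below the 11.03 of TPC18645 and the 10.99 of TCPA18654 and above the 8.57 of K459. Thy1 was highest in K459, at 8.86 against 7.23 in TPC20223. Of 6 mesenchymal markers, 5 were highest in TPC20223, against 28.1% of all genes. Snai2 was at 11.52 there against 9.59 to 9.72, and Twist1 at 9.11 against 6.67 to 8.32. Vim, an intermediate filament gene of mesenchymal cells, was among these 5 but lay at 13.79 to 13.91 in all lines. Cdh2 went the other way, with 10.95 in TPC20223 against 11.41 to 11.97. The labels call all 4 pancreatic tumor cells, and the keratins of a ductal cell were thus high in 3 of them and low in TPC20223. Of 6 leukocyte markers, all but Cd68 had means below the 40th percentile (Ptprc from 5.61 to 6.02). Cd68 was at 8.60 in TPC18645 and TCPA18654, 7.66 in K459 and 6.66 in TPC20223. Rela, the floxed gene, ranged from 10.70 to 11.12 with both ends in TPC lines, and since the cluster reads probes across the transcript this does not check the genotype. Tgfa was at 7.88 in TPC20223 and at 8.90 to 9.07 in the other lines, and whether its cluster reads the transgene was not tested. Array medians ranged from 7.19 to 7.26.

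**Figure D2:**
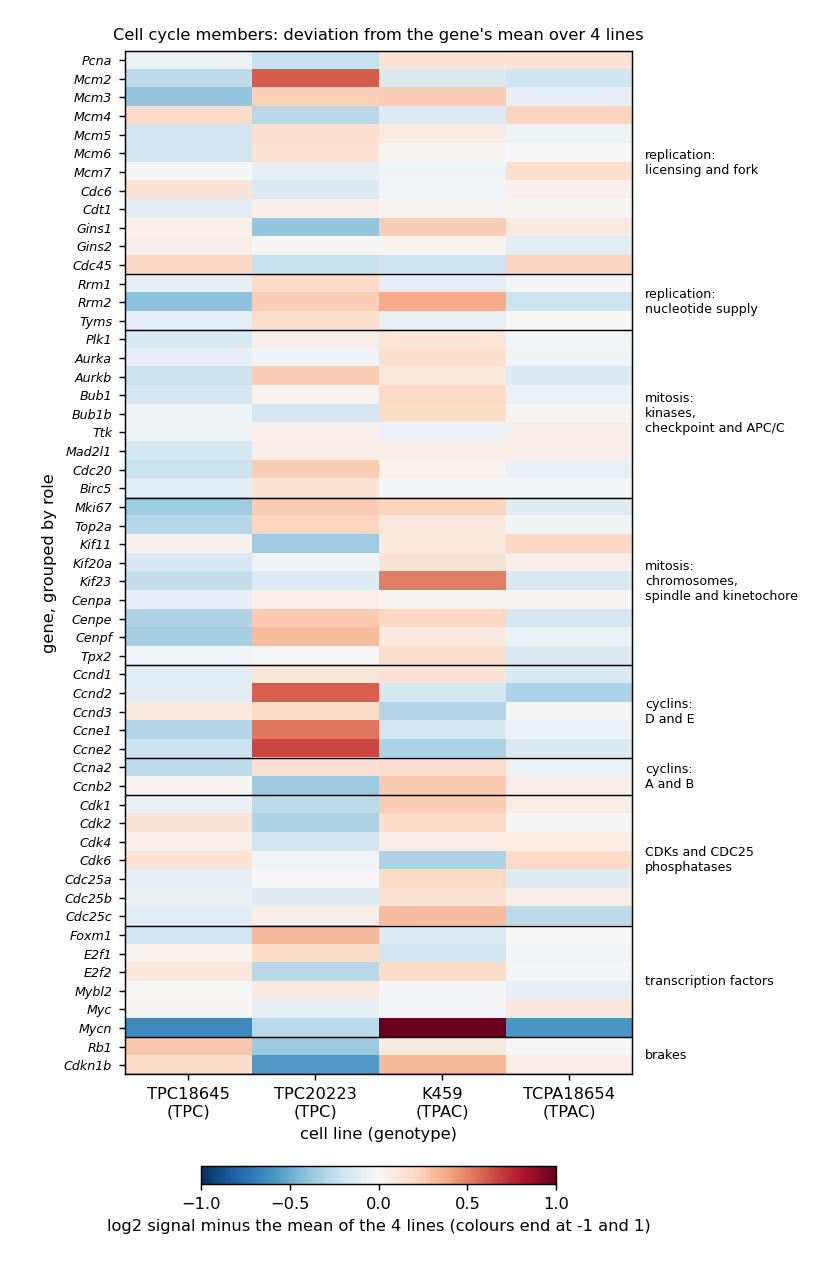
Log2 signal of the 55 measured genes in each line after subtraction of the gene's mean over the 4 lines (red above, blue below the mean, with colours ending at -1 and 1), in rows grouped by role. Mitosis rows are mostly blue in TPC18645, D-type and E-type cyclin rows are red in TPC20223, and Mycn stands out in K459.

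Whether the added p65fl/fl alleles went along with a change of the cell cycle genes is the comparison set by the labels. No gene of the 19938 was called in TPAC against TPC cells (limma with Benjamini-Hochberg adjustment over all genes, at an adjusted p up to 0.05 and a log2 difference from 0.58 upwards in size), hence 0 of 55 members against a background of 0% of genes. At an unadjusted p under 0.05, limma gave 156 genes (0.782%) and 0 members, and the methods' test gave 517 genes and 0 members. The smallest adjusted p of any gene was 0.989. The genotype labels can be dealt to the 4 lines in 6 ways, so that an exact two-sided permutation test of one gene cannot go below p = 0.333. Absence of calls does not show that the genotypes were alike.

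By count, 38 members had a higher and 17 a lower mean in TPAC cells, that is 30.9% lower against 46.7% of all genes, and the median log2 difference was 0.07 against 0.02 for all genes. The sign of that median was not stable, since without TPC18645 it was -0.04. Signals of the TPC and TPAC lines did not overlap in 9 members with TPAC higher (Cdk1, Pcna, Ccnb2, Gins1, Kif11, Cdc25b, Kif20a, Bub1b and Cdk4), which is 16.4% against 13.7% of all genes, and in 4 members with TPAC lower (Ccnd2, Ccnd3, E2f1 and Mybl2), which is 7.27% against 13.3%.

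Of the members with higher TPAC means, Cdk1, the kinase that starts mitosis, came first by p. Its signals were 11.45 for TPC18645, 11.26 for TPC20223, 11.78 for K459 and 11.60 for TCPA18654. Both TPAC lines lay above both TPC lines, with means of 11.69 ± 0.13 and 11.36 ± 0.13 (SD, n = 2 each) and a log2 difference of 0.34 (SE 0.15), and limma did not call it (adjusted p = 0.989, from 0.362 to 0.998 over the alternatives). Pcna, the sliding clamp of DNA polymerase, had signals of 12.22, 12.06, 12.42 and 12.43 in the same order of lines. Its groups did not overlap either, and the difference of 0.29 (SE 0.13) did not pass limma's test (adjusted p = 0.989, from 0.350 to 0.998). A second cluster of Pcna gave values within 0.01 of these.

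Ccnb2 encodes cyclin B2, a partner of CDK1. It had signals of 11.71 for TPC18645, 11.32 for TPC20223, 11.94 for K459 and 11.75 for TCPA18654, and thus the top of the TPC lines lay 0.04 below the bottom of the TPAC lines. Gins1 encodes a subunit of the GINS complex, which travels with the replicative helicase, and its signals of 8.09, 7.65, 8.29 and 8.13 were separated by the same 0.04. In both genes the lowest line was TPC20223, and the differences of 0.33 (SE 0.20) and 0.34 (SE 0.21) did not pass limma's test (adjusted p = 0.989 for each). Without TPC20223 the differences were 0.14 for Ccnb2 and 0.12 for Gins1, and without TPC18645 they were 0.53 and 0.56.

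Among the genes with lower TPAC means, all 5 D-type and E-type cyclins were found, with a median log2 difference of -0.28, whereas both measured A-type and B-type cyclins were higher, with a median of 0.22. The cyclin difference rested on TPC20223: without this line the D and E median was -0.02, and without TPC18645 it was -0.65. None of the cyclins was called. Replication genes numbered 11 higher and 4 lower, with a median of 0.04, mitosis genes 14 higher and 4 lower, with a median of 0.08, and kinases with CDC25 phosphatases 6 higher and 1 lower, with a median of 0.14. The 6 transcription factors were split evenly with a median of 0.00, and the brakes Rb1 and Cdkn1b were both higher with a median of 0.24. Without TPC18645 the replication and mitosis medians turned to -0.06 and -0.03, and without TPC20223 that of the brakes turned to -0.11.

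Median deviation of the 15 replication genes from their own means over the 4 lines was -0.08 for TPC18645, 0.07 for TPC20223, 0.03 for K459 and 0.01 for TCPA18654. For the 18 mitosis genes it was -0.16, 0.05, 0.11 and -0.04 in the same order. Replication minus mitosis was therefore 0.08, 0.02, -0.09 and 0.05. The median deviation of the replication genes was thus above that of the mitosis genes in 3 lines and below it in K459. In TPC20223 it was 0.19 over the 3 genes of nucleotide supply. Over the 12 genes of licensing and the replication fork it was -0.04 there, which is below the mitosis genes. The difference between the roles was not tested. Between lines, the replication and mitosis medians had the same sign in 5 of the 6 pairs, which share lines, and in K459 against TPC20223 they were 0.01 and -0.01.

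**Figure D3:**
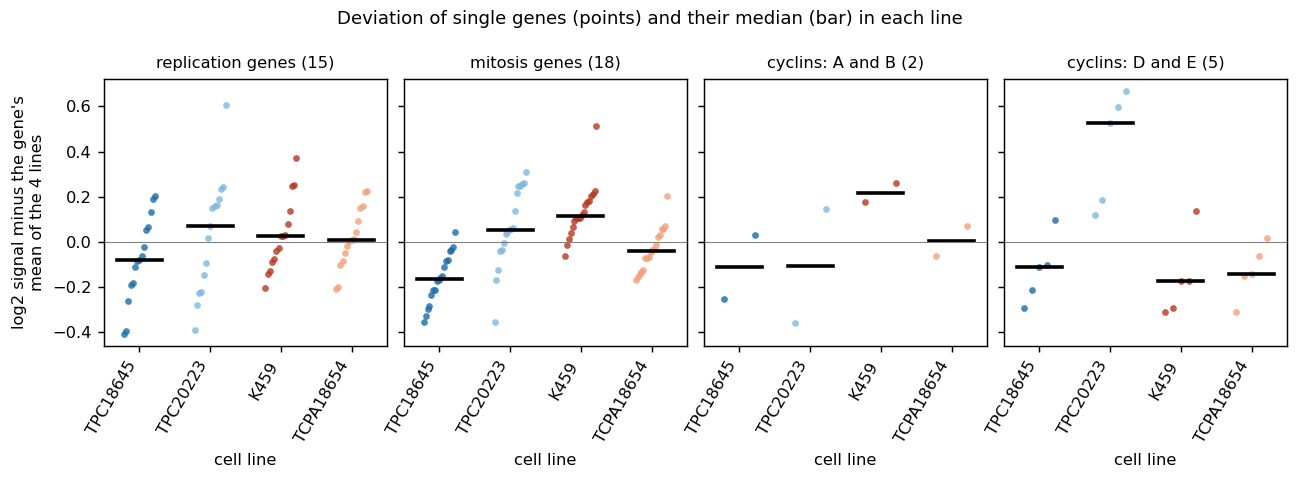
Log2 signal minus the gene's mean over the 4 lines, for each gene (points, ordered by value within a line) and their median (bar), in replication genes, mitosis genes, A-type and B-type cyclins and D-type and E-type cyclins. The D-type and E-type cyclins of TPC20223 have a median of 0.53, and the mitosis genes of TPC18645 lie below 0 except for 1.

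Mitosis genes were mostly lowest in TPC18645, though by small margins. Of 18 mitosis genes, 14 had their lowest signal in this line and 0 their highest, whereas 16.9% of all genes were lowest and 25.2% highest there. Exceptions were Bub1b, a spindle checkpoint kinase gene, and Kif11, a spindle motor gene, both lowest in TPC20223, Ttk, another checkpoint kinase gene, lowest in K459, and Tpx2, which encodes an activator of Aurora A, lowest in TCPA18654. In the 14 genes, TPC18645 lay below the next line by 0.04 (Aurka) to 0.26 (Cenpf). The mitosis median of TCPA18654 was also below 0, at -0.04 against -0.16 in TPC18645. Of the replication genes 7 of 15 were lowest in TPC18645, and over all members the count was 25 of 55. Of a further 57 mitosis genes outside the set, 22 (38.6%) were lowest in TPC18645, and of 44 further replication genes 9 (20.5%). The counts for the set's mitosis genes were 13 to 15 under other scalings of the arrays, and for the further mitosis genes 21 to 33. Each line has 1 array, so that a difference of one line from the others has no error of its own and was not tested.

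Mki67, the gene of the Ki-67 proliferation antigen, had signals of 10.40 for TPC18645, 11.01 for TPC20223, 10.98 for K459 and 10.63 for TCPA18654. High and low lines were therefore found in each genotype, and the log2 difference of TPAC from TPC was 0.10 (SE 0.28). Cenpf, which encodes a kinetochore protein made in G2 and mitosis, followed the same order with 8.77, 9.41, 9.19 and 9.03. Kif23, whose motor protein works at the central spindle in cytokinesis, behaved otherwise, with 10.08, 10.19, 10.83 and 10.16. K459 alone was high in Kif23, by 0.64 over the next line, while the other 3 lines lay within 0.11.

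The other 15 mitosis genes had ranges over the lines from 0.12 to 0.56. At the low end were Ttk with 0.12 and Cenpa, the histone H3 variant of centromeres, with 0.13, and at the high end were Kif11 and Cenpe, a kinetochore motor gene, with 0.56 each. Cenpe, Top2a (the topoisomerase that untangles chromosomes), Aurkb (the kinase of the chromosomal passenger complex), Cdc20 (the activator of the anaphase-promoting complex) and Birc5 (survivin) had their lowest signal in TPC18645 and their highest in TPC20223, as had Cenpa. Plk1, Aurka, Bub1, Mad2l1 and Kif20a, which encode mitotic kinases, a checkpoint protein and a motor, were lowest in TPC18645 and highest in K459.

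Of the replication genes, Mcm2 varied most. This helicase subunit gene had signals of 10.45 for TPC18645, 11.32 for TPC20223, 10.57 for K459 and 10.51 for TCPA18654. TPC20223 lay 0.75 above the next line, and the other 3 lines were within 0.12. The other helicase genes did not share this pattern. Mcm3 had signals of 9.37, 10.00, 10.01 and 9.68, with TPC20223 and K459 level at the top. Mcm5 and Mcm6 were highest in TPC20223 by small margins, with ranges of 0.35 and 0.33, whereas Mcm4 and Mcm7 were lowest in this line, with ranges of 0.50 and 0.25. Thus the 6 subunits of one complex spanned both ends of the order in TPC20223.

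Rrm2, the subunit of ribonucleotide reductase whose amount limits the supply of deoxynucleotides in S phase, had signals of 10.95 for TPC18645, 11.60 for TPC20223, 11.73 for K459 and 11.15 for TCPA18654. It thus separated one line of each genotype from the other, as Mki67 did. Rrm1, its partner subunit, and Tyms, thymidylate synthase, ranged over 0.28 and 0.25 and were highest in TPC20223. Of the licensing factors, Cdt1 ranged over 0.18 and Cdc6 over 0.28. Gins2 ranged over 0.17 and Cdc45, which completes the active helicase, over 0.45, with TPC18645 and TCPA18654 at 9.06 and 9.08 and the other lines at 8.63 and 8.65.

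D-type and E-type cyclins were the role with the widest spread, a median range of 0.82 against 0.35 for replication and 0.36 for mitosis genes. Their median deviation was 0.53 in TPC20223 and -0.11, -0.17 and -0.14 in TPC18645, K459 and TCPA18654. In TPC20223 this lay 0.46 above the replication genes and 0.48 above the mitosis genes of the same line. Of 5 such cyclins, 4 were highest in TPC20223, against 28.1% of all genes.

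Ccne2, a cyclin E gene, had signals of 8.59 for TPC18645, 9.47 for TPC20223, 8.49 for K459 and 8.66 for TCPA18654. Ccne1, the other one, had 9.72, 10.54, 9.84 and 9.95. In both genes TPC20223 lay above the 3 other lines, which spanned 0.17 and 0.23. Ccnd2, a cyclin D gene, followed with 12.54, 13.25, 12.48 and 12.34, again with TPC20223 on top. As the genotype means hold this line, the log2 difference of TPAC from TPC was -0.49 (SE 0.29) for Ccnd2 and -0.46 (SE 0.35) for Ccne2, neither of which limma called (adjusted p = 0.989, from 0.200 to 0.998 and from 0.199 to 0.998 over the alternatives). Without TPC20223 the differences were -0.13 and -0.02, and without TPC18645 they were -0.84 and -0.90.

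TPC20223 showed no such gap in the other cyclin D genes. Ccnd1, the cyclin D1 gene, had signals of 12.20 for TPC18645, 12.42 for TPC20223, 12.44 for K459 and 12.15 for TCPA18654, and so ranked one line of each genotype high. Ccnd3, the cyclin D3 gene, had 10.83, 10.92, 10.44 and 10.75, with K459 lowest. Its TPC lines lay above its TPAC lines, and the difference of -0.28 (SE 0.17) did not pass limma's test (adjusted p = 0.989, from 0.550 to 0.998). It was -0.13 without K459 and -0.44 without TCPA18654. Ccna2, the cyclin A2 gene of S phase and G2, had 11.61, 12.01, 12.04 and 11.80, which is the order of Mki67 but for the top pair.

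**Figure D4:**
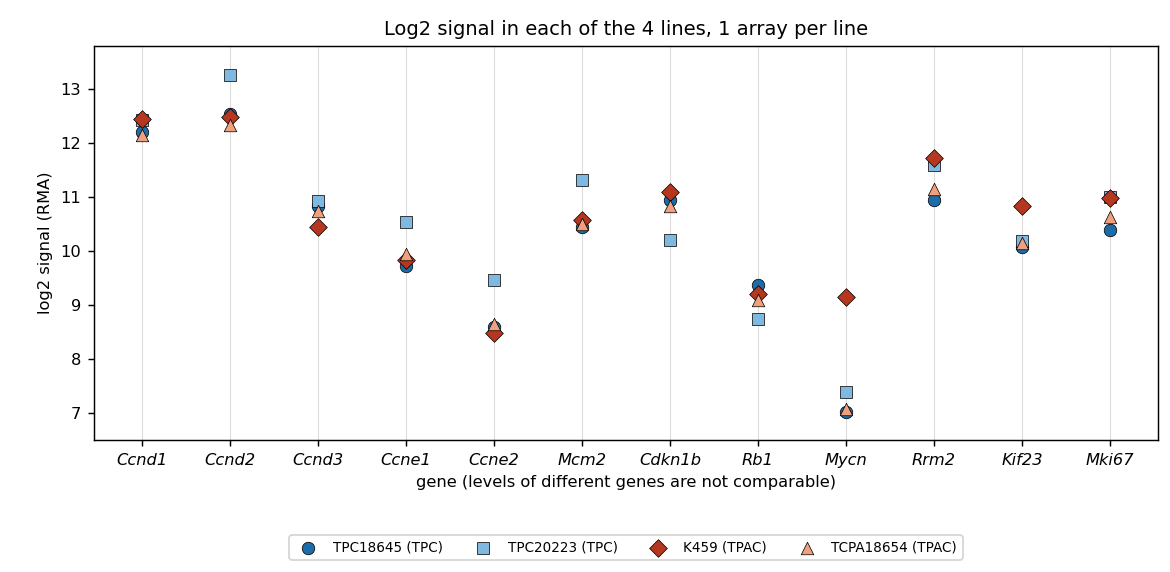
Log2 signal of 12 genes in each line (1 array per line, TPC lines in blue and TPAC lines in red). TPC20223 lies apart at the top in Ccnd2, Ccne1, Ccne2 and Mcm2 and at the bottom in Cdkn1b and Rb1, and K459 lies apart at the top in Mycn and Kif23.

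Both brakes had their lowest signal in TPC20223, as had 38.8% of all genes, and 4 of 5 D-type and E-type cyclins had their highest there. Of 7 other CDK inhibitors and pocket proteins, 0 were lowest and 4 were highest in TPC20223. Cdkn1b encodes p27, an inhibitor of cyclin E with CDK2, and had signals of 10.95 for TPC18645, 10.20 for TPC20223, 11.09 for K459 and 10.83 for TCPA18654. A second, dimmer cluster of Cdkn1b had the same lowest and highest lines, with 7.36, 6.22, 7.92 and 7.03. Rb1, the retinoblastoma gene, had 9.37, 8.74, 9.20 and 9.10. TPC20223 was below the next line by 0.63 in Cdkn1b and by 0.36 in Rb1. In the same line the median deviation was -2.91 over the 9 ductal and epithelial markers and 0.85 over the 7 fibroblast markers, and their part in the cyclin and inhibitor values was not tested.

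Among kinases, Cdk2, the partner of cyclin E, and Cdk4, a partner of cyclin D, had their lowest signals in TPC20223, with ranges of 0.51 and 0.26. Of all genes, 38.8% were lowest in this line. Cdk6 had its lowest in K459, with 11.17 against 11.45 to 11.68. Of the CDC25 phosphatases, which activate the kinases, all 3 were highest in K459, with ranges of 0.32 for Cdc25a, 0.26 for Cdc25b and 0.57 for Cdc25c. In total 22 of 55 members were highest in K459, against 22.6% of all genes, and 21 were highest in TPC20223, against 28.1%.

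Mycn showed the largest range of all members, 2.13. This gene of the MYC family, usually studied in neural tumours, had signals of 7.02 for TPC18645, 7.39 for TPC20223, 9.15 for K459 and 7.08 for TCPA18654. K459 thus lay 1.76 above the next line, which is over 3-fold, and the other TPAC line was at the level of the TPC lines. The genotype difference of 0.91 (SE 0.78) is therefore the value of 1 line. Myc, its ubiquitous relative, had 11.99, 11.88, 11.96 and 12.09, a range of 0.21 in which K459 did not stand out.

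The other transcription factors varied less. Foxm1, the activator of G2 and mitosis genes, had signals of 10.05 for TPC18645, 10.57 for TPC20223, 10.11 for K459 and 10.24 for TCPA18654. TPC18645, in which 14 mitosis genes were lowest, was also lowest in Foxm1. TPC20223 and K459 were each highest in 8 mitosis genes. Of these lines, TPC20223 was highest in Foxm1, but K459 lay within 0.06 of TPC18645. E2f1 had 9.48, 9.63, 9.26 and 9.42 and E2f2 had 7.90, 7.51, 7.97 and 7.78, so that TPC20223 was highest in the former and lowest in the latter activator E2F. The TPC lines lay above the TPAC lines in E2f1, by a mean of 0.22 on the log2 scale (SE 0.14, limma's adjusted p = 0.989, from 0.483 to 0.998). The log2 difference of TPAC from TPC in E2f1 was -0.14 without K459 and likewise without TPC20223. Mybl2, which encodes B-MYB, ranged over 0.17.

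In pairs of lines, counts of members that differed at least 1.5-fold were below the share of all genes in each of the 6 pairs. Between TPC20223 and TPC18645 there were 10 members (18.2% against 22.4% of all genes), of which 8 were higher in TPC20223: Mcm2, Mcm3, Rrm2, Mki67, Cenpf, Ccnd2, Ccne1 and Ccne2. Rb1 and Cdkn1b were lower there. K459 against TPC20223 gave 9 members (16.4% against 22.3%) and TCPA18654 against TPC20223 gave 5 (9.09% against 21.8%), with Mcm2, Ccnd2, Ccne1 and Ccne2 lower and Cdkn1b higher than in TPC20223 in both pairs. In K459, Gins1, Kif23, Ccnb2 and Mycn were higher as well. These pairs share TPC20223, so that they are not separate evidence of its pattern.

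K459 differed from TPC18645 in 5 members (9.09% against 10.9%), Mcm3, Rrm2, Mki67, Kif23 and Mycn, all of them higher in K459. The 2 TPAC lines differed in 3 members (5.45% against 10.0%), with Rrm2, Kif23 and Mycn lower in TCPA18654. TCPA18654 and TPC18645, which carry different genotype labels, differed in 0 members (0% against 1.68%), and the largest difference between them was 0.31, in Mcm3. Their small differences ran one way in most members nevertheless, as 17 of 18 mitosis genes and 13 of 15 replication genes were higher in TCPA18654, with medians of 0.11 and 0.09, against 44.1% of all genes. Outside the set the split was less sharp, with 41 of 57 other mitosis genes and 29 of 44 other replication genes higher in TCPA18654.

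**Figure D5:**
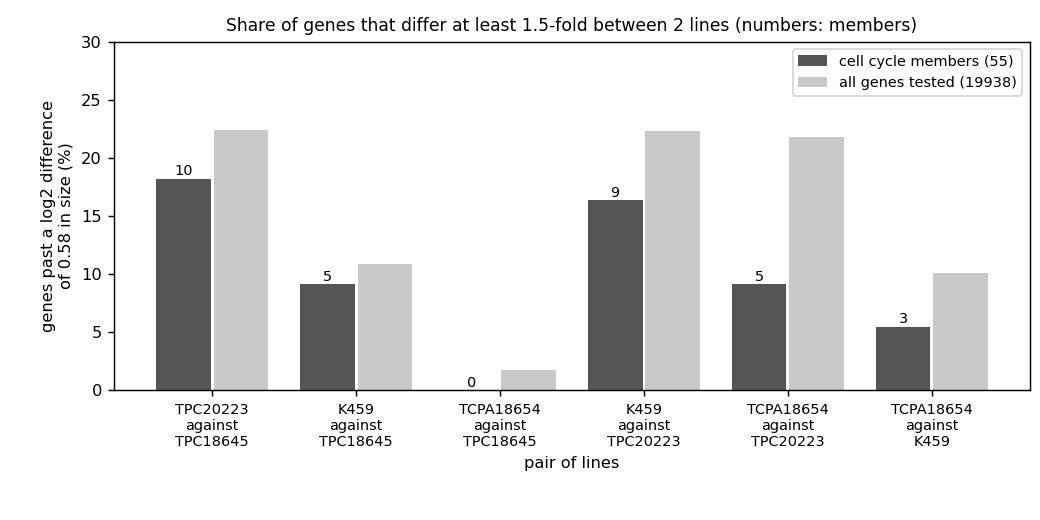
Share of the 55 members and of all 19938 genes (%) whose log2 signals differ by 0.58 or more in size between the lines of each pair, with the number of members above the bars. Members lie below all genes in each pair, from 10 members between the TPC lines to 0 between TCPA18654 and TPC18645.

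Further genes of the pathway, in lists fixed beside the set, gave no call by limma in either direction. Of 44 other replication genes 21 were higher and 23 lower in TPAC cells, with a median of -0.02, and of 57 other mitosis genes 33 were higher and 24 lower, with a median of 0.04. By smallest p these lists were led by Dut (dUTPase) and Orc4 (origin recognition), and by the kinesin genes Kif20b and Kif15. Kif20b had signals of 8.10 for TPC18645, 7.74 for TPC20223, 8.57 for K459 and 8.36 for TCPA18654, a difference of 0.55 (SE 0.19) with both TPAC lines above both TPC lines.

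Of 7 other CDK inhibitors and pocket proteins, 5 were lower in TPAC cells, and 1 had an unadjusted p under 0.05. This was Cdkn2b, the p15 inhibitor of CDK4 and CDK6, with signals of 10.46 for TPC18645, 10.79 for TPC20223, 10.05 for K459 and 9.97 for TCPA18654. Both TPAC lines were lower, by 0.62 on the log2 scale (SE 0.17), and limma did not call it (adjusted p = 0.989). Its neighbour Cdkn2a came next, with 10.90, 10.91, 10.46 and 10.71. Cdkn1a lay in a cluster shared with another gene and is not given.

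Mxd4, a MAX partner that opposes MYC, was the single gene of 9 in the MAX network with an unadjusted p under 0.05, with 10.43 for TPC18645, 10.82 for TPC20223, 10.03 for K459 and 10.09 for TCPA18654. It was lower in both TPAC lines, by 0.57 on the log2 scale (SE 0.19, limma's adjusted p = 0.989), and Mxd3 followed it by p. Of 14 E2F, DP and MuvB genes, 7 were higher and 7 lower. E2f7, a repressor E2F, had 9.57, 10.39, 9.41 and 9.52 and was thus high in TPC20223 like the E-type cyclins, and E2f4 followed by p.

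Of 19 genes of the APC/C and SCF ubiquitin ligases 5 were higher and 13 lower, led by Anapc11 and Cdc26, with a median of -0.05. Of 9 checkpoint genes 3 were higher and 6 lower, led by Rad17 and by Chek2, a DNA damage kinase gene. Chek2 had 8.58 for TPC18645, 7.18 for TPC20223, 8.59 for K459 and 8.49 for TCPA18654, so that TPC20223 was low by 1.31. Of 10 other cyclin and CDK genes 5 were higher and 5 lower. Here Ccng2, a cyclin linked to growth arrest, led with 9.37, 8.60, 9.67 and 9.60, again lowest in TPC20223, and Cdk7, of the CDK-activating kinase, followed. Replication-dependent histone genes, 13 of 22 of which could be named, were lower in 9 and higher in 4, led by H4c3 and H2ac4, and as their copies are nearly identical the clusters may not separate them.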

How the data were processed

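RNA of 4 cell lines, with 1 array per line, was analysed. The authors deposited log2 signals after RMA, for which Affymetrix Expression Console 1.4 is named in the submitters' processing notes. Filters and array batches are not stated. RMA gives the arrays nearly the same distribution, so a difference in total RNA cannot be seen. Precision is limited by the number of arrays. Of 28941 clusters, 21789 had 1 symbol, 1621 had several and 5531 were unnamed. By Entrez number, 21698 matched RefSeq (GRCm38.p6), which changed 0 symbols. 0 columns belonged to no sample.

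A two-sided test of TPAC against TPC was run with lmFit and eBayes of limma 3.58.1, in R 4.3.3, over 19938 genes with Benjamini-Hochberg adjustment and no filter. Tables and figures used Python 3.11.15 with pandas 2.3.3 and matplotlib 3.10.9. Deviations were taken from a gene's mean over the 4 lines. A gene held a motif if any of its promoter windows did. Values in every line are given for the 12 members of largest range, the 4 of smallest p in each direction and 12 regulators and markers, and the 2 genes of smallest p in each list of other genes are named. The members and lists were chosen with earlier results of these data known. Alternatives were cyclic loess, a common median per array, quantile normalization again, the mean of a gene's clusters, genes above the 40th percentile, an intensity trend, the methods' test, a log2 difference of 1, and leaving out each line. The limma fit was tested on simulated data.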

Additional observations from a re-analysis of the deposited data

How the results depend on the processing

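Calls by limma were 0 genes and 0 members in each alternative, leaving out a line included. With a line left out, the median log2 differences of TPAC from TPC ran from -0.035 to 0.13 over all members, from -0.055 to 0.09 in replication genes, from -0.025 to 0.20 in mitosis genes, from -0.645 to -0.015 in D-type and E-type cyclins, from 0.11 to 0.33 in A-type and B-type cyclins, from 0.13 to 0.25 in kinases and CDC25 phosphatases, from -0.10 to 0.005 in transcription factors and from -0.11 to 0.59 in the brakes. The lone line of a genotype was then taken to vary like the lines of the other. Without TPC18645, 3357 genes and 7 members had an unadjusted p under 0.05 (smallest adjusted p 0.0913, of members 0.193), and without TCPA18654, 395 genes and 2 members did; the cause was not tested. The transcription factor median was 0.02 with a common median per array and -0.017 with cyclic loess. At a log2 difference of 1, members past it numbered 0 for TPC20223 against TPC18645, 1 for K459 against TPC18645, 1 for K459 against TPC20223, 0 for TCPA18654 against TPC20223 and 1 for TCPA18654 against K459, and where there was 1 it was Mycn. Of the 22 members that the rule for named genes selects, 19 kept their highest and lowest line under every scaling, and Pcna, Mcm3 and Ccnd1, with near ties at an end, did not. Ccna2 and Cdc45, given in addition, also had near ties at an end and were not in this check. No paired analysis was possible because the labels give each line its own name and no number that pairs lines across genotypes.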
